A study of Mus musculus with 48 samples.

Results

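Axin2, Lef1, Tcf7, Nkd1, Nkd2, Sp5, Rnf43 and Znrf3 are genes whose transcription WNT/beta-catenin signalling raises in many tissues, and they were followed through mouse skin during the hair cycle. They were picked by name and make up 8 of the 46983 genes listed in each of 2 deposited tables. Both tables give FPKM, fragments scaled to transcript length, so that levels can be set side by side between genes, and to sequencing depth. Between groups the median of all genes moved on this scale by up to 0.33 (log2), and changes are read beside that median where it is printed. Other scalings are given for some, not all, of the calls and directions that they change. The first table holds 43 libraries of whole chin, ventral and dorsal skin of C57BL/6 mice, labelled as competent or refractory telogen, as early, mid or late anagen, or as catagen, so that there were 18 groups of 2 or 3 libraries. The second table holds 7 libraries, namely 2 of rostral ear skin in telogen, 3 of the ear cartilage/muscle complex and 2 of dorsal competent telogen skin, which stand in the first table with the same values. No transgene, knockout or treatment is given for any group, and the labels name no age or sex and do not say whether libraries come from separate animals, so that p-values measure the spread between libraries, which may be technical.

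WNT proteins bind Frizzled and LRP receptors, and beta-catenin, which is otherwise destroyed in the cytoplasm, then accumulates and joins TCF/LEF proteins on DNA to raise transcription of target genes. Several of those targets act back on the pathway: Axin2 helps to destroy beta-catenin, the Naked cuticle proteins Nkd1 and Nkd2 bind Dishevelled, and the ubiquitin ligases Rnf43 and Znrf3 remove Frizzled receptors from the cell surface. In skin, WNT signalling is required for follicles to form and for the resting follicle (telogen) to re-enter growth (anagen), and LEF1 is present in the matrix and precortex, the cells that make the hair shaft. Anagen is followed by regression (catagen), and telogen has an early, refractory phase in which follicles do not answer growth signals and a later, competent phase in which they do.

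The stretches before the annotated starts of Sp5, Lef1 and Axin2 are shown because TCF/LEF proteins bind DNA at the letters CTTTGA, or CTTTGAT in a longer form, and the members with and without these letters can be compared by eye. RefSeq promoter windows on GRCm38.p6, 250 bases before to 50 bases after a start, were at hand for 7 of the 8 genes (12 windows, several for genes with more than 1 start), and Znrf3 had none. CTTTGA was searched on both strands, with CTTTGAT counted within it, and was found in 2 windows, of Sp5 and of Lef1. Of all 32851 promoter windows, 16.0% held CTTTGA and 3.73% held CTTTGAT. The 250 bases before each start are printed 5′ to 3′ on the strand of the gene, with matches in capitals, which read TCAAAG where the match lies on the opposite strand.
Sp5, chr2:70474673-70474922, + strand: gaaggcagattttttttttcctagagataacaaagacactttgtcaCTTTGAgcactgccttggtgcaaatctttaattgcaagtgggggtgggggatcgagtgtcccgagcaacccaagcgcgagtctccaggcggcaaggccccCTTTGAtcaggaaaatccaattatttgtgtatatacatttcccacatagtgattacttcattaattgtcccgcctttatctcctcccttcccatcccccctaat
Lef1, internal start, chr3:131156044-131156293, + strand: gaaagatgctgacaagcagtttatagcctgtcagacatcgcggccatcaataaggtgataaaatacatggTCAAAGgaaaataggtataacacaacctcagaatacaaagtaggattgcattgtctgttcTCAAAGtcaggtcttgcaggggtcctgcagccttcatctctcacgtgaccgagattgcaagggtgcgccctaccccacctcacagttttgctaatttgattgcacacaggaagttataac
Axin2, chr11:108920099-108920348, + strand: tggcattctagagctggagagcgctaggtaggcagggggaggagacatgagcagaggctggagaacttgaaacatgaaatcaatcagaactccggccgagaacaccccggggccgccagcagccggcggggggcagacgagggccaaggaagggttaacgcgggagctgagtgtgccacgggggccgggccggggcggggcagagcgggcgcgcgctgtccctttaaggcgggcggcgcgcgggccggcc
In Sp5 the matches began at -204 and -104 from the start, and the nearer one was followed by a T and so also matched the longer form. In Lef1 they lay at -180 and -120 from a start inside the gene, and the other Lef1 windows had none. The Axin2 window had no match, and neither did those of Tcf7, Nkd1, Nkd2 and Rnf43. A match of letters does not show binding, and its absence from a window of this length says nothing about binding elsewhere. Sp5 (chromosome 2, GENCODE vM21) has a single annotated transcript of 2100 exon bases. Exons of Axin2 (chromosome 11) overlap those of Gm11670 on the other strand over 3.80% of their bases, and exons of Lef1 (chromosome 3) overlap those of Gm43352 over 13.8%, and since these libraries do not mark strand, reads there cannot be told apart.

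The 43 skin libraries had 6718971 to 26330220 fragments (median 12981580), as read from the steps in FPKM of single-transcript genes. Markers did not follow all stage labels. The 12 proliferation genes, Mki67 and Top2a among them, had mean levels of 2.01 to 2.71 on the log2(FPKM + 1) scale in the 10 libraries labelled refractory telogen (7) or ventral early anagen (3), and of 3.80 to 5.32 in the other 33. The 8 melanocyte genes showed the same separation, at 1.69 to 2.15 against 3.95 to 5.82, which placed the 7 libraries labelled competent telogen with the anagen and catagen libraries. The 11 hair matrix and shaft genes measured did not separate them, with 6.17 to 8.04 against 5.63 to 8.69, and the 8 epidermal keratinocyte genes stood at 8.36 to 9.25 against 7.15 to 8.89. None of the defining markers of these lists was at 0 throughout. Also, 1 ventral catagen library carries a rostral ear location label. For the target genes, the stage, anagen against telogen and interaction tests are therefore given with and without the competent telogen and ventral early anagen libraries, called the doubted libraries below. Steps and pairs that use such a group exist only with them, and the counts of other WNT genes were made only with them. Dorsal competent telogen and chin late anagen libraries were close to each other in cell type markers, with skeletal muscle genes summing to 4282 to 4346 and 4167 to 4437 FPKM and proliferation means of 3.88 to 3.91 and 3.82 to 3.84.

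The levels of the 8 genes were far apart, which FPKM allows to be compared since it is per length. Over the 43 skin libraries Lef1 had a median of 36.9 FPKM, Nkd2 28.1 and Znrf3 26.0, followed by Tcf7 at 6.39, Nkd1 at 5.26, Axin2 at 4.57 and Rnf43 at 3.2, and Sp5 had 0.15. The plot of levels by stage shows every library.

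**Figure D1:**
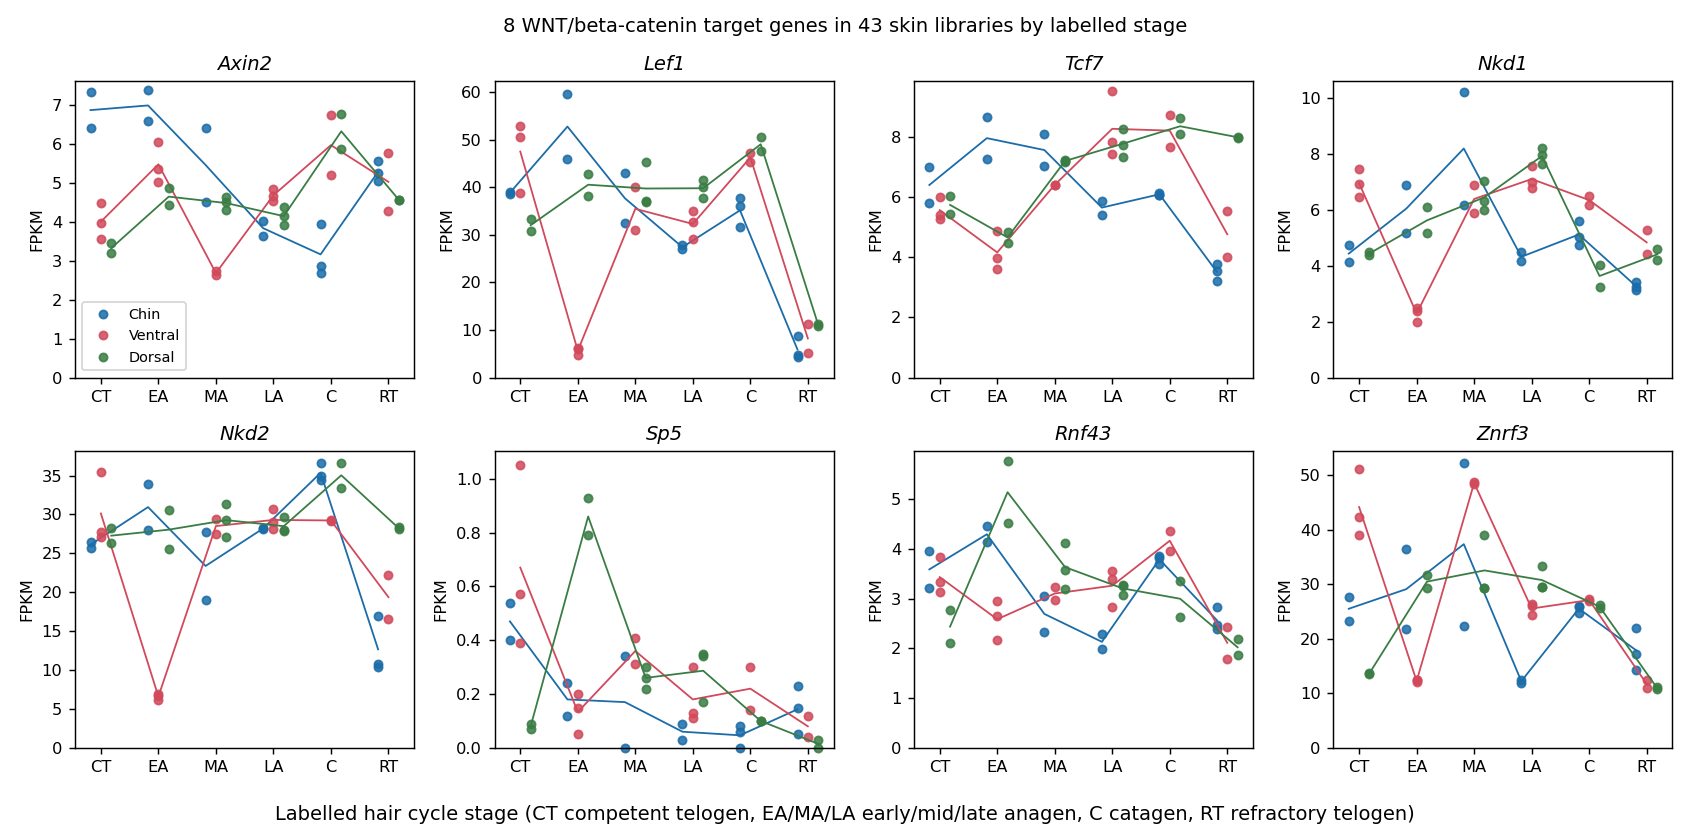
Levels of the 8 WNT/beta-catenin target genes in FPKM (linear axes from 0) against labelled hair cycle stage (CT competent telogen, EA, MA and LA early, mid and late anagen, C catagen, RT refractory telogen) in chin, ventral and dorsal skin. Points are single libraries and lines join group means of 2 or 3 libraries. Lef1 lies between 4.3 and 11.4 FPKM in all refractory telogen and ventral early anagen libraries and between 27.0 and 59.6 FPKM in all others.

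Lef1, a DNA-binding partner of beta-catenin, had the widest range among the members that were expressed in every library. In chin skin, Lef1 stood at 39.1 and 38.6 FPKM in competent telogen, 46 and 59.5 in early anagen, 43 and 32.4 in mid anagen, 27 and 27.8 in late anagen, 36, 37.8 and 31.7 in catagen and 4.3, 8.72 and 4.69 in refractory telogen. In ventral skin, Lef1 measured 38.9, 50.6 and 53 FPKM in competent telogen, 6, 4.78 and 6.2 in early anagen, 30.9 and 40 in mid anagen, 29.2, 35 and 32.7 in late anagen, 45.4 and 47.2 in catagen and 11.2 and 5.26 in refractory telogen. In dorsal skin, Lef1 stood at 33.3 and 30.8 FPKM in competent telogen, 38.2 and 42.8 in early anagen, 36.9, 37 and 45.2 in mid anagen, 37.7, 40.1 and 41.5 in late anagen, 47.5 and 50.5 in catagen and 10.8 and 11.4 in refractory telogen. The 10 libraries labelled refractory telogen or ventral early anagen were all lower (4.3 to 11.4 FPKM, median 6.1) than each of the other 33 (27.0 to 59.6 FPKM, median 38.6), with no overlap. These are the same libraries that were low in proliferation and melanocyte markers, and the part of those cells in the Lef1 level was not tested. In bulk skin, fewer cells of a type and less RNA per cell cannot be told apart. The group means ran from 5.66 ± 0.769 FPKM (SD, n = 3) in ventral early anagen to 52.8 ± 9.62 FPKM (SD, n = 2) in chin early anagen. Of the 17 pairs of neighbours in that order, 14 overlapped in their libraries, and the 3 that did not included the step from dorsal refractory telogen to chin late anagen.

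**Figure D2:**
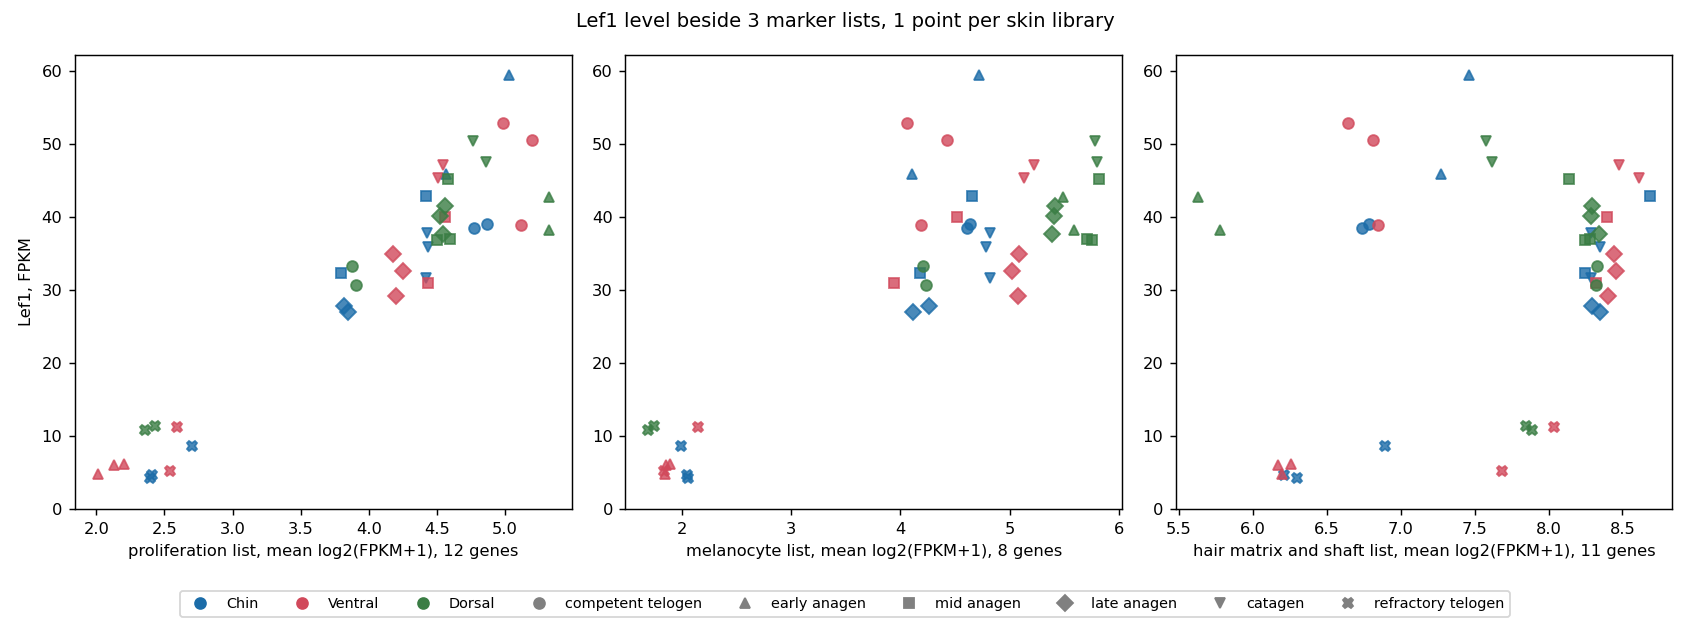
Lef1 level (FPKM, linear axis from 0) of each skin library against the mean log2(FPKM + 1) of the 12 proliferation, 8 melanocyte and 11 hair matrix and shaft genes, with colour for the domain and symbol for the labelled stage. The 10 libraries labelled refractory telogen or ventral early anagen stand apart at the lower left in the first 2 panels (proliferation mean 2.01 to 2.71) but not along the axis of the third, and the circles of competent telogen lie with the anagen and catagen libraries.

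Tcf7 encodes TCF1, another DNA-binding partner of beta-catenin, which is also abundant in T cells. In chin skin, Tcf7 measured 5.81 and 6.98 FPKM in competent telogen, 7.25 and 8.65 in early anagen, 8.1 and 7.01 in mid anagen, 5.88 and 5.41 in late anagen, 6.07, 6.13 and 6.06 in catagen and 3.22, 3.54 and 3.77 in refractory telogen. In ventral skin, Tcf7 stood at 5.41, 5.26 and 6.01 FPKM in competent telogen, 3.61, 3.98 and 4.88 in early anagen, 6.41 and 6.39 in mid anagen, 7.44, 7.81 and 9.53 in late anagen, 8.73 and 7.67 in catagen and 5.53 and 3.99 in refractory telogen. In dorsal skin, Tcf7 measured 5.43 and 6.04 FPKM in competent telogen, 4.84 and 4.47 in early anagen, 7.21, 7.2 and 7.17 in mid anagen, 8.24, 7.34 and 7.71 in late anagen, 8.08 and 8.61 in catagen and 7.97 and 7.99 in refractory telogen. Chin refractory telogen was lowest, with 3.51 ± 0.276 FPKM (SD, n = 3), and dorsal catagen highest, with 8.35 ± 0.375 FPKM (SD, n = 2). Unlike Lef1, Tcf7 was high in the dorsal refractory telogen libraries (7.97 and 7.99 FPKM), which overlapped with none of the chin or ventral refractory telogen libraries. The summed level of 14 T cell genes was 97.0 to 129 FPKM in the 10 libraries that were low in Lef1 and 42.3 to 135 in the other 33, and its part in the Tcf7 level was not tested. In the order of group means, 15 of 17 neighbours overlapped.

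Sp5, a zinc finger factor that responds to WNT and binds GC-rich DNA, was near the limit of what could be measured. In chin skin, Sp5 stood at 0.54 and 0.4 FPKM in competent telogen, 0.12 and 0.24 in early anagen, 0.34 and 0 in mid anagen, 0.03 and 0.09 in late anagen, 0, 0.06 and 0.08 in catagen and 0.15, 0.05 and 0.23 in refractory telogen. In ventral skin, Sp5 stood at 1.05, 0.39 and 0.57 FPKM in competent telogen, 0.05, 0.15 and 0.2 in early anagen, 0.31 and 0.41 in mid anagen, 0.11, 0.3 and 0.13 in late anagen, 0.3 and 0.14 in catagen and 0.04 and 0.12 in refractory telogen. In dorsal skin, Sp5 measured 0.07 and 0.09 FPKM in competent telogen, 0.93 and 0.79 in early anagen, 0.3, 0.22 and 0.26 in mid anagen, 0.35, 0.34 and 0.17 in late anagen, 0.1 and 0.1 in catagen and 0.03 and 0 in refractory telogen. It was listed at 0 in 3 of the 43 libraries and passed the filter on low values (0.5 FPKM in at least 2 libraries) only through groups where it was high, since the 5 libraries at or above that level were 2 of ventral competent telogen, 2 of dorsal early anagen and 1 of chin competent telogen. Its values are therefore described without tests, and the counts of genes called below are over the other 7 genes. Both dorsal early anagen libraries (0.93 and 0.79 FPKM) were above all other dorsal libraries, of which the highest had 0.35. None of the 17 neighbouring pairs of group means was free of overlap.

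Axin2, a scaffold of the complex that destroys beta-catenin, varied least between its lowest and highest group after Tcf7 and Rnf43. In chin skin, Axin2 measured 6.42 and 7.34 FPKM in competent telogen, 7.39 and 6.61 in early anagen, 4.51 and 6.43 in mid anagen, 4.04 and 3.65 in late anagen, 2.86, 2.69 and 3.96 in catagen and 5.56, 5.05 and 5.27 in refractory telogen. In ventral skin, Axin2 stood at 3.98, 4.48 and 3.57 FPKM in competent telogen, 6.07, 5.02 and 5.37 in early anagen, 2.74 and 2.64 in mid anagen, 4.55, 4.67 and 4.85 in late anagen, 5.2 and 6.76 in catagen and 5.78 and 4.29 in refractory telogen. In dorsal skin, Axin2 stood at 3.2 and 3.46 FPKM in competent telogen, 4.87 and 4.44 in early anagen, 4.52, 4.65 and 4.3 in mid anagen, 3.92, 4.15 and 4.39 in late anagen, 6.79 and 5.88 in catagen and 4.57 and 4.58 in refractory telogen. The lowest group was ventral mid anagen, with 2.69 ± 0.0707 FPKM (SD, n = 2), and the highest chin early anagen, with 7 ± 0.551 FPKM (SD, n = 2). Its level in the 10 libraries that were low in Lef1 (4.29 to 6.07 FPKM, median 5.16) lay within that of the other 33 (2.64 to 7.39 FPKM, median 4.48). Axin2 and Lef1 therefore did not share the low groups. Of the 17 neighbours in order, 16 overlapped.

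Nkd1, which binds Dishevelled and damps WNT signalling, had its lowest group mean in ventral early anagen, as had Lef1. Its dorsal catagen libraries (4.01 and 3.25 FPKM) were low too, while Lef1 was high there. In chin skin, Nkd1 stood at 4.72 and 4.14 FPKM in competent telogen, 5.18 and 6.89 in early anagen, 10.2 and 6.18 in mid anagen, 4.16 and 4.47 in late anagen, 5.6, 5.01 and 4.72 in catagen and 3.41, 3.14 and 3.22 in refractory telogen. In ventral skin, Nkd1 measured 7.45, 6.92 and 6.46 FPKM in competent telogen, 2, 2.38 and 2.49 in early anagen, 5.89 and 6.87 in mid anagen, 7.54, 6.76 and 6.97 in late anagen, 6.5 and 6.18 in catagen and 5.26 and 4.4 in refractory telogen. In dorsal skin, Nkd1 measured 4.49 and 4.38 FPKM in competent telogen, 6.08 and 5.15 in early anagen, 5.99, 7.02 and 6.31 in mid anagen, 7.94, 8.19 and 7.61 in late anagen, 4.01 and 3.25 in catagen and 4.2 and 4.6 in refractory telogen. Ventral early anagen (2.29 ± 0.257 FPKM (SD, n = 3)) was below every library of the other groups. Chin mid anagen was highest, with 8.18 ± 2.83 FPKM (SD, n = 2), and its 2 libraries lay at 10.2 and 6.18 FPKM. Neighbours overlapped in 14 of 17 pairs.

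Nkd2, the other Naked cuticle gene, had a higher level than Nkd1 in each of the 43 skin libraries. In chin skin, Nkd2 measured 25.7 and 26.5 FPKM in competent telogen, 28 and 33.9 in early anagen, 27.7 and 19 in mid anagen, 28.2 and 28.2 in late anagen, 36.6, 34.5 and 35 in catagen and 10.8, 16.9 and 10.3 in refractory telogen. In ventral skin, Nkd2 measured 35.5, 27.8 and 27.1 FPKM in competent telogen, 6.98, 6.15 and 6.67 in early anagen, 27.6 and 29.5 in mid anagen, 30.8, 28.1 and 29.1 in late anagen, 29.2 and 29.3 in catagen and 22.2 and 16.6 in refractory telogen. In dorsal skin, Nkd2 stood at 26.3 and 28.2 FPKM in competent telogen, 30.5 and 25.6 in early anagen, 29.3, 31.4 and 27.1 in mid anagen, 29.6, 27.9 and 28 in late anagen, 36.6 and 33.5 in catagen and 28.1 and 28.4 in refractory telogen. Ventral early anagen was again lowest, with 6.6 ± 0.419 FPKM (SD, n = 3), and did not overlap with any other group. Dorsal refractory telogen (28.1 and 28.4 FPKM) lay within the range of dorsal anagen skin (25.6 to 31.4 FPKM), whereas chin refractory telogen (10.3 to 16.9 FPKM) was below all other chin libraries. Chin catagen had the highest mean, 35.4 ± 1.11 FPKM (SD, n = 3), and 16 of 17 neighbours overlapped.

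Rnf43 encodes a membrane ubiquitin ligase that takes Frizzled receptors off the cell surface. In chin skin, Rnf43 stood at 3.21 and 3.96 FPKM in competent telogen, 4.13 and 4.45 in early anagen, 3.05 and 2.33 in mid anagen, 1.98 and 2.28 in late anagen, 3.85, 3.69 and 3.82 in catagen and 2.83, 2.39 and 2.47 in refractory telogen. In ventral skin, Rnf43 stood at 3.83, 3.13 and 3.33 FPKM in competent telogen, 2.65, 2.16 and 2.94 in early anagen, 3.24 and 2.96 in mid anagen, 3.55, 2.83 and 3.39 in late anagen, 4.36 and 3.96 in catagen and 2.43 and 1.79 in refractory telogen. In dorsal skin, Rnf43 stood at 2.77 and 2.1 FPKM in competent telogen, 4.51 and 5.76 in early anagen, 3.2, 4.12 and 3.57 in mid anagen, 3.28, 3.07 and 3.26 in late anagen, 2.63 and 3.36 in catagen and 2.18 and 1.86 in refractory telogen. It ran from 2.02 ± 0.226 FPKM (SD, n = 2) in dorsal refractory telogen to 5.13 ± 0.884 FPKM (SD, n = 2) in dorsal early anagen, so that both ends of its range were dorsal. Neighbouring groups overlapped in 15 of 17 pairs.

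Znrf3, the paralogue of Rnf43 with the same known activity, was expressed at a higher level in every library. In chin skin, Znrf3 measured 27.7 and 23.3 FPKM in competent telogen, 21.7 and 36.5 in early anagen, 52.4 and 22.4 in mid anagen, 12 and 12.5 in late anagen, 26, 25.8 and 24.8 in catagen and 14.3, 22.1 and 17.2 in refractory telogen. In ventral skin, Znrf3 measured 42.3, 51.1 and 39.1 FPKM in competent telogen, 12.4, 12.4 and 12 in early anagen, 48.4 and 48.8 in mid anagen, 24.3, 26.3 and 26.1 in late anagen, 26.9 and 27.4 in catagen and 12.4 and 11 in refractory telogen. In dorsal skin, Znrf3 measured 13.8 and 13.6 FPKM in competent telogen, 29.4 and 31.6 in early anagen, 29.2, 29.3 and 39.1 in mid anagen, 29.6, 29.4 and 33.3 in late anagen, 26.1 and 25.7 in catagen and 11.2 and 10.8 in refractory telogen. Dorsal refractory telogen had the lowest mean, 11 ± 0.304 FPKM (SD, n = 2), and ventral mid anagen the highest, 48.6 ± 0.276 FPKM (SD, n = 2). Chin late anagen (12.0 and 12.5 FPKM) and dorsal competent telogen (13.8 and 13.6 FPKM) lay within the range of refractory telogen skin (10.8 to 22.1 FPKM), while Lef1 stood at 27.0 to 33.3 FPKM in the same libraries. The 2 chin mid anagen libraries were far apart, at 52.4 and 22.4 FPKM. With 13 of 17 neighbours overlapping, Znrf3 had the most groups that could be told apart from the next.

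Each domain was first asked whether a gene changed over its 6 stages, with limma on log2(FPKM + 1) and Benjamini-Hochberg adjustment over all 21257 genes tested. All 7 genes changed in chin skin, where 66.2% of all genes tested did, all 7 in ventral skin (70.2% of all genes) and 6 in dorsal skin (68.5%). Without the doubted libraries the counts were again 7, 7 and 6, against 63.8%, 47.5% and 67.3% of all genes. Nkd2 was the exception in dorsal skin (adjusted p = 0.397), with group means over a range of 0.35 on the log2 scale. The ranges were widest for Lef1, at 3.00 in chin, 2.86 in ventral and 2.05 in dorsal skin. Most of all genes changed over the stages too.

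From catagen to refractory telogen, Lef1 fell in all 3 domains. The log2 difference was -2.44 ± 0.19 (adjusted p = 1.9e-11) in chin, -2.43 ± 0.23 (adjusted p = 4.11e-09) in ventral and -2.05 ± 0.23 (adjusted p = 2.94e-08) in dorsal skin, and the libraries of the groups did not overlap. In chin skin 6 of the 7 genes fell (17.5% of all genes did) and Axin2 rose by 0.61 ± 0.11 (adjusted p = 5.08e-05), as 30.5% of all genes did. In ventral skin 5 fell (18.8% of all genes) and in dorsal skin 4 (24.5%). Znrf3 fell in each domain, with -1.15 ± 0.23 (adjusted p = 0.000264) in ventral and -1.17 ± 0.23 (adjusted p = 0.000117) in dorsal skin, while its smaller fall in chin skin, -0.51 ± 0.19 (adjusted p = 0.025), lost its call in 4 of the 43 fits that each left out 1 library. Axin2 went the other way in dorsal skin, at -0.39 ± 0.14 (adjusted p = 0.0216), a call lost in 3 of the 43 such fits and with TPM (-0.36) and median of ratios scaling (-0.30).

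Between refractory and competent telogen, Lef1 rose by 2.58 ± 0.21 (adjusted p = 6.89e-11) in chin, 2.46 ± 0.21 (adjusted p = 2.43e-10) in ventral and 1.45 ± 0.23 (adjusted p = 3.1e-05) in dorsal skin. Chin skin had 6 genes that rose, all but Znrf3, against 18.4% of all genes. The call of Axin2 was lost in 21 of the 43 fits with 1 library left out and in 6 of 9 other settings of scaling, filter or fit. That of Nkd1 was lost in 4 such fits and 2 of 9 settings, and that of Rnf43 in 3 such fits. Ventral skin had 5 that rose, against 34.5%, with Znrf3 the largest after Lef1 at 1.82 ± 0.21 (adjusted p = 4.87e-08). The median of all genes moved by 0.22 there. The calls of Nkd1, Nkd2 and Rnf43 were each lost in 1 of the 43 fits with 1 library left out and in 2 other settings. In dorsal skin Lef1 alone rose (11.3% of all genes did), and Tcf7 fell, at -0.42 ± 0.12 (adjusted p = 0.0123), a direction taken by 10.8% of all genes and a call lost in 3 of the 43 fits with 1 library left out. As the libraries labelled competent telogen resemble anagen libraries in proliferation and melanocyte markers, these differences go with those of the marker lists, whose part in them was not tested.

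The step from competent telogen to early anagen differed by domain. In ventral skin all 7 genes were called: Axin2 rose and the other 6 fell, against 29.3% of all genes that fell and 13.2% that rose. Lef1 fell most, at -2.86 ± 0.19 (adjusted p = 9.5e-13), before Nkd2 at -2.03 ± 0.13 (adjusted p = 8.81e-13) and Znrf3 at -1.76 ± 0.19 (adjusted p = 1.1e-08). The calls of Axin2 and Rnf43 were each lost in 2 of the 43 fits with 1 library left out. In other settings of scaling, filter or fit, Rnf43 lost its call in 3 of 8 and Tcf7 in 3 of 9. From ventral early to mid anagen Lef1 rose by 2.45 ± 0.21 (adjusted p = 2.44e-10) and Nkd2 by 1.96 ± 0.15 (adjusted p = 1.99e-11), Axin2 fell, at -0.81 ± 0.13 (adjusted p = 5.83e-06), and 5 genes in all rose against 16.8% of all genes (25.6% fell). Both steps rest on the 3 libraries labelled ventral early anagen.

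In dorsal skin Znrf3 rose over the same step by 1.10 ± 0.23 (adjusted p = 0.000284) and Rnf43 by 0.84 ± 0.14 (adjusted p = 1.52e-05), while 35.2% of all genes rose and the median of all genes moved by 0.25. With median of ratios scaling these were 0.68 and 0.49, both called. Over this step the mean of proliferation genes went from between 3.88 and 3.91 to 5.32, that of dermal papilla genes from 1.95 to 1.98 up to 3.00 to 3.09 and that of hair matrix and shaft genes from 8.32 to 8.33 down to 5.63 to 5.78, and their part in the result was not tested. Axin2 rose by 0.38 ± 0.14 (adjusted p = 0.025) in this step, but by 0.04 with median of ratios scaling and by 0.0035 with quantile normalization, both without a call. From dorsal early to mid anagen Rnf43 fell and Tcf7 rose by 0.54 ± 0.11 (adjusted p = 0.000307) (30.1% of all genes fell and 9.09% rose). In chin skin limma called none of the 7 genes from competent telogen to early anagen (2 at an unadjusted p under 0.05), where 2.14% of all genes were called.

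Of the later steps, limma called none from ventral late anagen to catagen (3 at an unadjusted p under 0.05, 5.93% of all genes called) and none from dorsal mid to late anagen (1 unadjusted, 2.68% of all genes). In chin skin Znrf3 fell, at -1.42 ± 0.23 (adjusted p = 4.69e-05), and so did Nkd1, at -0.75 ± 0.14 (adjusted p = 0.000285) from mid to late anagen, which are 2 of the 4 genes that fell against 12.3% of all genes. Without the mid anagen library that was high in both, these were -0.82 and -0.43, still called. The other 2, Axin2 and Tcf7, lost their calls with TPM, median of ratios scaling and quantile normalization. From dorsal late anagen to catagen Nkd1 fell, at -0.95 ± 0.13 (adjusted p = 7.47e-07), and Axin2 rose by 0.51 ± 0.13 (adjusted p = 0.00178) (18.7% of all genes fell and 20.0% rose). Over the 6 steps of the cycle together, each gene counted once per step, the 7 genes rose 9 times and fell 11 times in chin skin (11.7% and 11.2% of all tests on all genes), rose and fell 13 times each in ventral skin (15.8% and 16.1%), and rose 6 times and fell 7 times in dorsal skin (16.0% and 15.7%).

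Anagen was compared with telogen in each domain as the mean of early, mid and late anagen minus the mean of competent and refractory telogen. In chin skin 4 genes were higher in anagen, against 8.99% of all genes, and none was lower (27.5% of all genes were). Lef1 was higher by 1.25 ± 0.14 (adjusted p = 5.37e-08), Nkd2 by 0.56 ± 0.10 (adjusted p = 5.33e-05), Nkd1 by 0.53 ± 0.09 (adjusted p = 1.63e-05) and Tcf7 by 0.47 ± 0.07 (adjusted p = 1.07e-05) on the log2 scale. In dorsal skin 4 were higher, against 29.6% of all genes, and none lower (9.44%), with Znrf3 at 1.28 ± 0.14 (adjusted p = 2.82e-08), Lef1 at 1.03 ± 0.14 (adjusted p = 1.25e-06), Rnf43 at 0.61 ± 0.08 (adjusted p = 1.15e-06) and Nkd1 at 0.49 ± 0.09 (adjusted p = 4.57e-05). With median of ratios scaling Nkd1 was 0.30 higher, and Tcf7, which was -0.07 in dorsal skin, was called lower with that scaling, at -0.26 (adjusted p = 0.00331 by limma), and with quantile normalization, at -0.29 (adjusted p = 0.00199), but was 0.06 with TPM. The median of all genes was -0.10 in chin and 0.10 in dorsal skin. None of the 8 calls of higher genes was lost when single libraries were left out.

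In ventral skin, Lef1 did not pass the test, with -0.04 ± 0.14 (adjusted p = 0.906), and its sign turned with the scaling (0.01 with TPM and 0.08 with median of ratios scaling). Nkd2 was lower in ventral anagen, at -0.40 ± 0.10 (adjusted p = 0.00257), against 16.1% of all genes that were lower. Nkd1 was lower, at -0.23 ± 0.08 (adjusted p = 0.0481), and Tcf7 higher by 0.20 ± 0.07 (adjusted p = 0.0374) (5.08% of all genes were higher), and these calls were lost in 28 of the 43 and 7 of the 43 fits with 1 library left out. Nkd1 also lost its call with TPM (-0.18), median of ratios scaling (-0.13) and quantile normalization (-0.16). Tcf7 kept its call with these scalings but lost it in 2 of 9 other settings of scaling, filter or fit.

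The contrast changed most in ventral skin when the libraries whose markers went against their labels were left out, so that telogen was refractory telogen alone and ventral anagen was mid and late anagen. Lef1 was then higher in anagen in all 3 domains, by 2.54 ± 0.18 (adjusted p = 8.97e-11) in chin, 1.99 ± 0.21 (adjusted p = 2.21e-07) in ventral and 1.76 ± 0.20 (adjusted p = 3.28e-07) in dorsal skin. In ventral skin 6 genes were higher, against 16.7% of all genes, among them Znrf3 by 1.51 ± 0.21 (adjusted p = 9.16e-06) and Nkd2, now by 0.57 ± 0.15 (adjusted p = 0.00476). Nkd1 turned as well, to 0.41 ± 0.13 (adjusted p = 0.0181), and Axin2 was lower, at -0.39 ± 0.12 (adjusted p = 0.0186), against 13.9% of all genes. In chin skin the same 4 genes were higher (15.3% of all genes), and in dorsal skin the same 4 (25.8%), with Tcf7 now lower, at -0.28 ± 0.09 (adjusted p = 0.0211) (11.6%). This choice of libraries was made after the data had been seen, and it makes the proliferation and melanocyte marker levels of anagen and telogen differ without overlap.

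**Figure D3:**
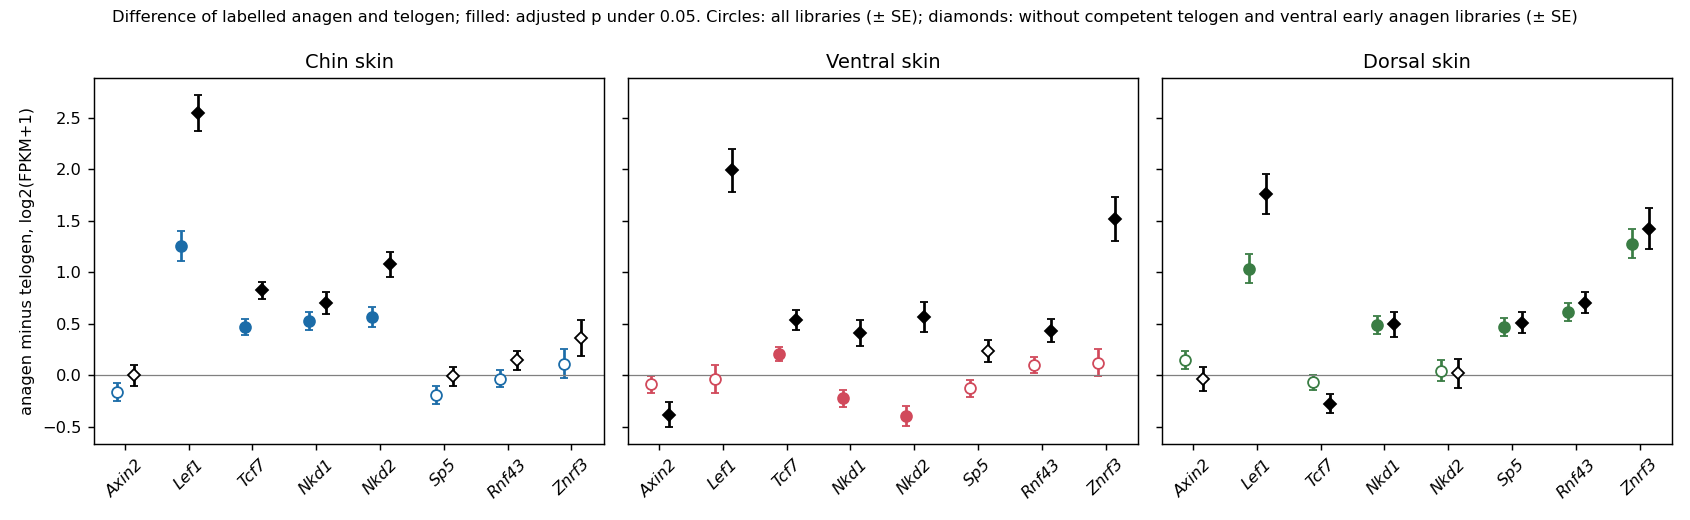
Anagen minus telogen difference of each gene on the log2(FPKM + 1) scale in chin, ventral and dorsal skin. Circles are all libraries and diamonds leave out those labelled competent telogen or ventral early anagen, with bars of 1 SE and filled symbols where adjusted p is under 0.05. Filled symbols of Sp5 are not read as tests. Lef1 in ventral skin moves from -0.04 to 1.99 between the symbols.

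The domains also differed in how the genes changed. A test of whether the course over the stages differed between domains called all 7 genes (limma F-test), against 73.3% of all genes, and 6 without the doubted libraries (64.4%), when Lef1 missed the threshold (adjusted p = 0.0832). The anagen minus telogen difference of Lef1 was lower in ventral than in chin skin, at -1.29 ± 0.20 (adjusted p = 1.96e-05), as were those of Nkd2, at -0.96 ± 0.14 (adjusted p = 8.63e-06), and Nkd1, at -0.76 ± 0.12 (adjusted p = 3.11e-05), the 3 genes called (18.7% of all genes). Without the doubted libraries none of these 3 passed, at -0.56 ± 0.27 (adjusted p = 0.144), -0.51 ± 0.19 (adjusted p = 0.0537) and -0.29 ± 0.17 (adjusted p = 0.213), and Znrf3 was called instead (25.8% of all genes were), at 1.15 ± 0.27 (adjusted p = 0.00347).

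Between dorsal and chin skin the difference itself was called for 5 genes, against 46.1% of all genes, and the median of all genes was 0.24. The dorsal difference was larger for Znrf3 by 1.17 ± 0.20 (adjusted p = 2.14e-05) and for Rnf43 by 0.65 ± 0.12 (adjusted p = 5.65e-05), and smaller for Tcf7, at -0.54 ± 0.11 (adjusted p = 0.000122). Those 3 kept their direction and call without the doubted libraries (42.2% of all genes called), at 1.06 ± 0.27 (adjusted p = 0.00261), 0.56 ± 0.14 (adjusted p = 0.00273) and -1.10 ± 0.12 (adjusted p = 4.12e-07). The size moved with the scaling, from 0.33 to 0.82 for Rnf43 and from -0.95 to -0.35 for Tcf7, all called. Nkd2 was also smaller, at -0.52 ± 0.14 (adjusted p = 0.00345), but lost its call with TPM (-0.31, adjusted p = 0.0957 by limma) and was -0.91 with median of ratios scaling. Axin2 was called at 0.31 ± 0.12 (adjusted p = 0.037), which turned to -0.02 with median of ratios scaling and -0.04 with quantile normalization and lost its call in 10 of the 43 fits with 1 library left out. Without the doubted libraries Axin2 was not called but Nkd2 was, among 5 genes, of which 2 had a larger and 3 a smaller dorsal difference. Between dorsal and ventral skin 6 genes were called (39.4% of all genes), of which Nkd2 and Rnf43 lost the call with median of ratios scaling and quantile normalization and Tcf7 with TPM, and without the doubted libraries Tcf7 alone (14.4%), at -0.81 ± 0.14 (adjusted p = 0.000202).

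At a given stage, the 3 domains were compared with each other. All 7 genes differed among the domains at early anagen, against 51.6% of all genes. Limma called 4 in competent (54.0%) and 5 in refractory telogen (42.2%), 1 at mid anagen (38.1%), 4 at late anagen (20.8%) and 3 at catagen (42.9%). At early anagen 6 genes were lower in ventral than in chin skin (19.8% of all genes), led by Lef1 at -3.01 ± 0.21 (adjusted p = 4.74e-12) and Nkd2 at -2.07 ± 0.15 (adjusted p = 8.89e-12). In the same stage 5 genes were higher in dorsal than in ventral skin (27.7%), Lef1 by 2.65 ± 0.21 (adjusted p = 4.27e-11) and Nkd2 by 1.93 ± 0.15 (adjusted p = 2.15e-11). These pairs share the ventral early anagen libraries, in which proliferation markers were low. Dorsal and chin early anagen, which do not, differed in 2 genes, with Tcf7 lower in dorsal skin, at -0.66 ± 0.12 (adjusted p = 0.000181) and Axin2 lower, at -0.50 ± 0.14 (adjusted p = 0.00782) (10.3% of all genes were lower and 16.7% higher), while Sp5 stood at 0.93 and 0.79 FPKM in dorsal and 0.12 and 0.24 in chin skin. Skeletal muscle genes summed to 5642 to 5876 FPKM in these dorsal and 353.7 to 892.5 in these chin libraries, and their part was not tested. The Axin2 call there was lost without chin replicate 1 (adjusted p = 0.0920) or dorsal replicate 2 (adjusted p = 0.0687).

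**Figure D4:**
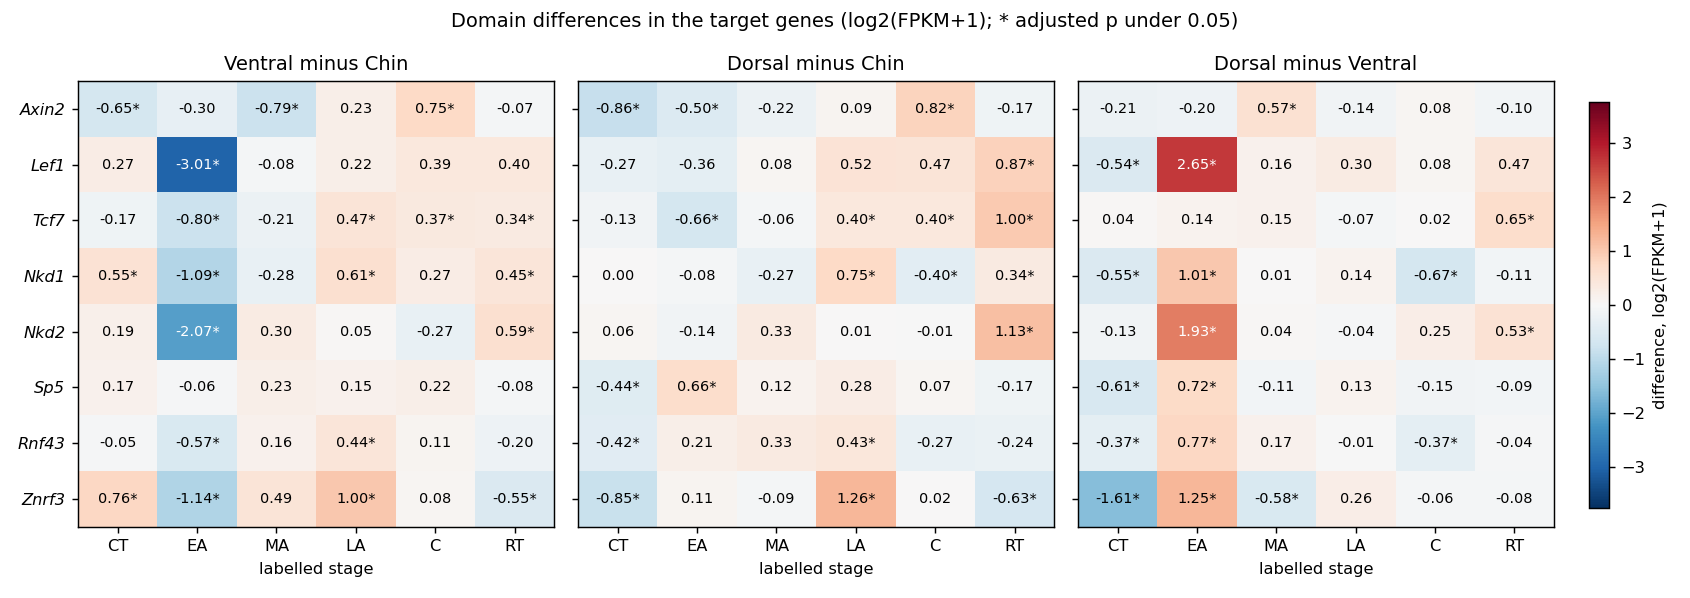
Differences between domains on the log2(FPKM + 1) scale for each gene (down) and each stage (across, CT competent telogen, EA, MA and LA early, mid and late anagen, C catagen, RT refractory telogen), for ventral minus chin, dorsal minus chin and dorsal minus ventral skin. Colour gives the difference and an asterisk an adjusted p under 0.05. Asterisks of Sp5 are not read as tests. The strongest colours are those of Lef1 and Nkd2 at early anagen in the pairs with ventral skin, such as -3.01 for Lef1 against chin.

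At refractory telogen, whose libraries had low proliferation markers in every domain, Nkd2 was higher in dorsal than in chin skin by 1.13 ± 0.15 (adjusted p = 7.79e-07) and Tcf7 by 1.00 ± 0.11 (adjusted p = 3.91e-08), and neither overlapped. Lef1 was higher there by 0.87 ± 0.21 (adjusted p = 0.00189), a call lost when the refractory telogen libraries were fitted alone. In all, dorsal skin exceeded chin skin in 4 genes at this stage (7.61% of all genes) and Znrf3 was lower (27.2%). The call of Nkd1 was lost in 5 of the 43 fits with 1 library left out and 4 of 9 other settings. That of Znrf3 was lost in 3 such fits and 3 of 9 settings. Other markers differed between these libraries, as skeletal muscle genes summed to 10030 to 15550 FPKM in chin and 3044 to 3235 in dorsal skin, adipocyte genes to 5346 to 5531 and 1247 to 1270 FPKM, and hair matrix and shaft genes had means of 6.21 to 6.89 and 7.85 to 7.88, and their part in the result was not tested. At competent telogen dorsal skin had less Axin2 than chin skin, at -0.86 ± 0.14 (adjusted p = 1.51e-05), with 3.2 and 3.46 against 6.42 and 7.34 FPKM, among 3 genes that were lower (27.5% of all genes, median -0.19), and skeletal muscle genes summed to 4282 to 4346 FPKM in dorsal and 467.0 to 494.9 in chin skin. At catagen Axin2 went the other way, with 0.82 ± 0.13 (adjusted p = 4.22e-06), one of 2 genes higher in dorsal skin (21.3% of all genes). At competent telogen Znrf3 was also lower in dorsal than in ventral skin, at -1.61 ± 0.21 (adjusted p = 3.06e-07), among 4 genes that were lower (38.0% of all genes, median -0.25). Only Znrf3 kept its call throughout. Lef1 lost its call in 4 of the 43 fits with 1 library left out and in 5 of 9 other settings of scaling, filter or fit. Rnf43 lost its call in 2 such fits and 3 of 8 settings, and Nkd1 in 2 of 9 settings. At late anagen Tcf7, Nkd1, Rnf43 and Znrf3 were higher in ventral and in dorsal than in chin skin (9.62% and 13.7% of all genes), although the calls of Tcf7 and Rnf43 were lost without some single libraries, with Znrf3 at 1.26 ± 0.21 (adjusted p = 6.32e-05) for dorsal against chin, and limma called none of the 7 between dorsal and ventral skin (0 at an unadjusted p under 0.05, 3.14% of all genes). Skeletal muscle genes summed to 4167 to 4437 FPKM in chin late anagen, 916.8 to 946.6 in ventral and 360.9 to 389.9 in dorsal late anagen, adipocyte genes to 3176 to 3368, 1482 to 1625 and 1822 to 1882 FPKM, and proliferation genes had means of 3.82 to 3.84, 4.18 to 4.25 and 4.52 to 4.56, and their part in the result was not tested. Pairs that share a domain share its libraries and are not independent.

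The 8 genes did not move as 1 group. Over the 18 group means the Pearson correlations of their 28 pairs had a median of 0.41 and ran from -0.22 to 0.82, with Lef1 and Nkd2 highest, 12 pairs over 0.5 and 5 under 0. Without the 3 refractory telogen groups and ventral early anagen (14 groups) the median was 0.26 and 6 pairs exceeded 0.5. These are descriptions, since groups share domains and stages and were sequenced as bulk skin. Among 14599 genes with a mean of at least 1 FPKM, those most like Lef1 over the 18 groups were Dclk3, Lmnb1 and Birc5 (r = 0.97 for each), the last of which is in the proliferation list. Nkd2 was most like Slc39a8 (r = 0.98), Wnt5a (r = 0.94) and Fbp1 (r = 0.93). Znrf3 was most like Uri1, Igsf3 and Thumpd2 (r = 0.97, 0.96 and 0.96), and Rnf43 like Gtf2i, Pms2 and Ttf2 (r = 0.94, 0.93 and 0.92). For Axin2 the genes were Kmt2c, 4932438A13Rik and Clk2 (r from 0.89 to 0.90), for Tcf7 Cdc14a, Cobll1 and Gtf2ird1 (r from 0.87 to 0.89), for Nkd1 Spint1, Pithd1 and Arl2bp (r from 0.87 to 0.91), and for Sp5 Gins2, Gm3604 and Ripk3 (r from 0.91 to 0.93). No gene was among the first 3 for more than 1 member.

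Other WNT genes were counted in the anagen contrast, where 8.99%, 5.08% and 29.6% of all genes were higher in chin, ventral and dorsal skin and 27.5%, 16.1% and 9.44% lower. All these counts include the doubted libraries, and whether they hold without them was not tested. Of 14 WNT ligands tested, 1 was higher and 3 lower in chin anagen than in chin telogen, none higher and 3 lower in ventral skin, and 6 higher and none lower in dorsal skin, with medians of 0.04, -0.11 and 0.21. Wnt7b, a ligand of the epidermis, had a median of 14.2 FPKM in the 10 libraries that were low in Lef1 and 6.30 in the other 33, and Wnt16 had 1.61 and 1.02 FPKM. For Wnt10b, a ligand made in the follicle at the onset of growth, these medians were 0.36 and 1.23 FPKM, and for Wnt6 they were 2.47 and 4.2 FPKM. Of 41 receptors and transducers, 4, 3 and 14 were higher in chin, ventral and dorsal anagen and 11, 8 and 7 lower, with medians of -0.10, -0.06 and 0.06 against -0.10, -0.05 and 0.10 for all genes. Fzd10, a Frizzled receptor, had medians of 6.21 and 15 FPKM in the 2 sets of libraries and Wls, which carries WNT proteins out of the cell, 47.7 and 77.2 FPKM, while the receptor Fzd4 had 3.36 and 1.83 FPKM and the corepressor Tle2 10.7 and 4.06 FPKM.

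Secreted antagonists were lower in chin anagen for 10 of 12 genes and higher for none, and higher in dorsal anagen for 7 and lower for 1. Dkkl1 had medians of 105 FPKM in the 10 libraries and 43.6 in the other 33, and Dkk2 6.67 and 2.79 FPKM. The Frizzled-related proteins Sfrp1 and Sfrp4 had 17.2 and 7.95 FPKM in the 10 libraries and 29.0 and 5.17 FPKM in the other 33. In ventral skin 1 antagonist was higher in anagen and 5 were lower. A further 12 genes often listed as WNT targets were split by domain, with 2 higher and 5 lower in chin, none higher and 6 lower in ventral and 9 higher and 1 lower in dorsal anagen. Lgr5, a marker of follicle stem cells, had medians of 13.5 FPKM in the 10 libraries and 6.89 in the other 33, opposite in order to Lef1, as had Ascl2 with 3.47 and 1.94 FPKM. Wif1, a secreted WNT inhibitor, had 4.96 and 26.9 FPKM and the receptor gene Tnfrsf19 9.20 and 16.5 FPKM. The telogen groups are shared by all these lists, and the doubted libraries are included in their counts.

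Telogen ear skin, the cartilage/muscle complex of the ear and dorsal skin were compared within the second table. The cartilage/muscle complex had cartilage genes at a mean of 6.19 to 6.31 and skeletal muscle genes at 9.26 to 9.46 on the log2 scale, with epidermal keratinocyte genes at 0.64 to 0.81. Ear skin had 11 hair matrix and shaft genes at 2.49 to 2.57, against 8.32 to 8.33 in the dorsal libraries, which are those labelled competent telogen. Proliferation genes stood at 3.57 to 3.60 in ear skin, 3.88 to 3.91 in dorsal skin and 0.49 to 0.58 in the cartilage/muscle complex, and the part of these cells in the levels below was not tested. The median of all 19299 genes tested was 0.33 higher in ear than in dorsal skin on the log2 scale, 0.24 higher in the cartilage/muscle complex than in dorsal skin and -0.11 against ear skin. All 3 comparisons share libraries with each other. Since the dorsal libraries are among the doubted ones, values with dorsal refractory telogen in their place are given too, with a dorsal group that carries low proliferation markers.

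Lef1 and Sp5 separated ear from dorsal skin most, in opposite directions. Lef1 was 1.26 and 1.63 FPKM in ear skin, 33.3 and 30.8 in dorsal skin and 6.41, 6.71 and 6.86 in the cartilage/muscle complex. It was lower in ear than in dorsal skin, at -3.76 ± 0.10 (adjusted p = 1.39e-06), and at -2.31 (adjusted p = 1.16e-05 by limma) when dorsal refractory telogen libraries took the place of the competent ones. With that replacement the other values of ear against dorsal skin were 0.55 for Axin2, -1.22 for Tcf7, -0.64 for Nkd2, 0.67 for Rnf43 and 0.84 for Znrf3, all called, and 0.20 for Nkd1, which was not. Lef1 was the 1 member that was higher in the cartilage/muscle complex than in ear skin, by 1.65 ± 0.09 (adjusted p = 1.36e-05), where 28.0% of all genes were higher. Sp5 was 4.11 and 3.8 FPKM in ear skin, 0.07 and 0.09 in dorsal skin and 0, 0 and 0 in the cartilage/muscle complex. Sp5 passed the filter in this table only through ear skin, so no test of it is given, and since all 3 cartilage/muscle libraries are listed at 0 no fold is given against them. Ear skin had more Sp5 than any of the 43 skin domain libraries, of which the highest had 1.05 FPKM, and the dorsal values that both tables hold are the same.

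Tcf7 was 2.6 and 3.11 FPKM in ear skin, 5.43 and 6.04 in dorsal skin and 1.85, 1.72 and 1.54 in the cartilage/muscle complex, and it was lower in ear than in dorsal skin, at -0.81 ± 0.11 (adjusted p = 0.00135) and from -1.22 to -0.61 with the other scalings. Axin2 was 7.9 and 6.47 FPKM in ear skin, 3.2 and 3.46 in dorsal skin and 2.89, 2.22 and 2.71 in the cartilage/muscle complex. It was higher in ear than in dorsal skin by 0.91 ± 0.13 (adjusted p = 0.00164), which was 0.51 with median of ratios scaling and 0.50 with quantile normalization, both called. Of the 7 genes other than Sp5, 3 were higher in ear than in dorsal skin (44.7% of all genes) and 3 were lower (14.6%). Nkd2 was 18.3 and 17.2 FPKM in ear skin, 26.3 and 28.2 in dorsal skin and 1.58, 1.78 and 1.42 in the cartilage/muscle complex. It was lower in ear than in dorsal skin, at -0.60 ± 0.09 (adjusted p = 0.0022), which was -0.36 with TPM, -1.07 with median of ratios scaling and -0.90 with quantile normalization, all called. Nkd2 was also lower in the cartilage/muscle complex than in dorsal skin, at -3.45 ± 0.09 (adjusted p = 3.84e-07), the largest of the 5 falls there (28.3% of all genes were lower). Axin2 and Nkd1 were not called there, but were called lower with median of ratios scaling (-0.58 and -0.54) and quantile normalization (-0.48 and -0.43). With dorsal refractory telogen libraries in place, Lef1 was -0.66 (-2.49 to -2.11 with competent ones under the other scalings) and Axin2 -0.63, both called. Tcf7 (-1.73), Nkd2 (-3.50), Rnf43 (-1.56) and Znrf3 (-1.52) stayed called then, and Nkd1 (-0.20) was not called. Nkd1 was 5.56 and 4.86 FPKM in ear skin, 4.49 and 4.38 in dorsal skin and 3.42, 4.5 and 3.26 in the cartilage/muscle complex. Its groups of ear and dorsal skin differed by 0.19 ± 0.14 (adjusted p = 0.301), which turned to -0.22 with median of ratios scaling and -0.21 with quantile normalization.

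The ubiquitin ligases were low in the cartilage/muscle complex. Rnf43 was 3.96 and 3.64 FPKM in ear skin, 2.77 and 2.1 in dorsal skin and 0.03, 0 and 0.03 in the cartilage/muscle complex, at or near 0 in the latter. Znrf3 was 19.8 and 21.2 FPKM in ear skin, 13.8 and 13.6 in dorsal skin and 3.2, 2.93 and 3.44 in the cartilage/muscle complex, and it was lower in the cartilage/muscle complex than in ear skin, at -2.36 ± 0.08 (adjusted p = 1.39e-06). There 6 of the 7 genes other than Sp5 were lower, against 38.5% of all genes, although Nkd1 lost its call in 6 of the 7 fits with 1 library left out and with median of ratios scaling (-0.32) and quantile normalization (-0.22). Between ear and dorsal skin Rnf43 was higher by 0.49 ± 0.12 (adjusted p = 0.0142) and Znrf3 by 0.55 ± 0.09 (adjusted p = 0.00206), and both lost the call with median of ratios scaling (0.12 and 0.08) and quantile normalization (0.08 and 0.18). Of the other WNT genes, Wif1 had a mean of 2084 FPKM in the cartilage/muscle complex, 19.9 in ear skin and 10.6 in dorsal skin, and Wnt7b had 0.01, 30.7 and 5.64 FPKM. WNT ligands were lower in the cartilage/muscle complex than in ear skin for 10 of 13 genes tested and higher for none.

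**Figure D5:**
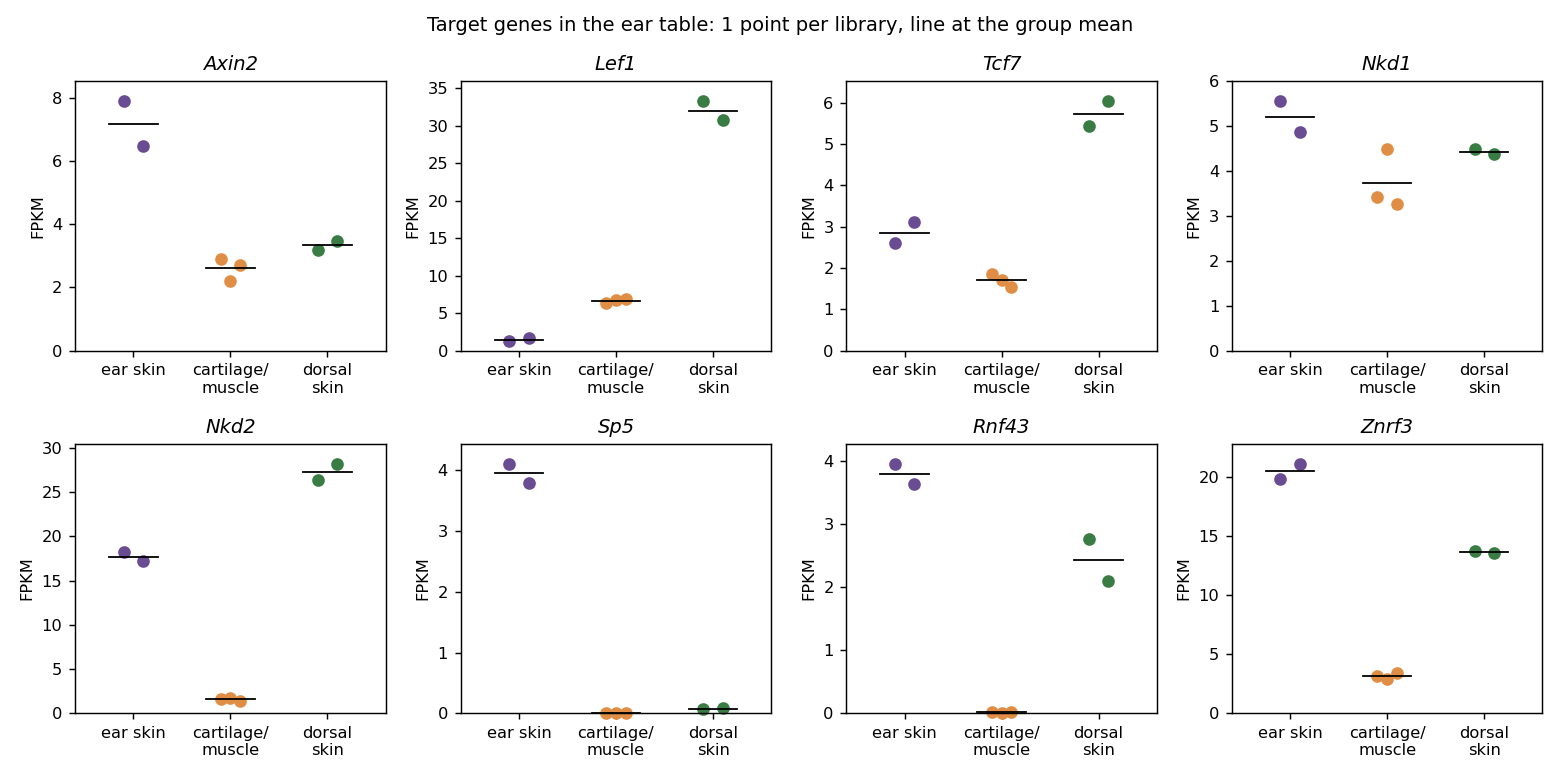
Levels of the 8 genes in FPKM (linear axes from 0) in telogen ear skin, the ear cartilage/muscle complex and dorsal skin labelled competent telogen. Points are single libraries and lines mark the means of 2 or 3 libraries. Lef1 is lowest in ear skin (1.26 and 1.63 FPKM) and Sp5 highest there (4.11 and 3.8 FPKM).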

How the data were processed

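RNA of whole skin and of ear tissue was made into SMART-seq2 and Nextera libraries, which do not mark strand. Per the labels and the methods, the authors aligned reads to mm10 with GENCODE vM8, quantified genes with RSEM 1.2.25, corrected for batches that are not named, and deposited FPKM per gene. No counts were used, so tests ran on log2(FPKM + 1), where the pseudocount is 1, and fold changes of low genes are understated. A gene needed 0.5 FPKM or more in 2 or more libraries to be tested, with limma 3.58.1 in R 4.3.3, with a variance trend, two-sided moderated tests and Benjamini-Hochberg adjustment at 0.05. The 43 skin libraries were fitted as 18 groups and the 7 ear table libraries as 3 groups. The study used edgeR on FPKM, which are not counts, and no count model was fitted here. Limma was tested on simulated data.

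The 8 genes, the other WNT lists and the marker lists were chosen with earlier results of these data known. Named genes are the 8 members, from each of 4 further WNT lists the 2 genes with the largest and the 2 with the smallest mean anagen minus telogen difference, and for each member the 3 genes with the highest correlation over the 18 group means. The alternatives were another pseudocount or filter, TPM, median of ratios or quantile scaling, a constant prior variance, a block for the replicate number, only the domain or stage compared, dorsal refractory telogen in the ear table, and each library left out. Leaving out libraries labelled competent telogen or ventral early anagen was added after seeing the data. Depth was estimated from whole-fragment steps in FPKM, replicates all differed by more than counting noise, and exon overlaps came from GENCODE vM21 on GRCm38. Ear skin libraries were matched to columns as a group, because column and title numbers differ. Tables were read and drawn with Python 3.11.15, numpy 2.4.6, pandas 2.3.3 and matplotlib 3.10.9.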

Additional observations from a re-analysis of the deposited data

Results flagged for a closer look

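The anagen minus telogen difference of a gene was itself compared between domains with limma, and the results below are those where it differed (adjusted p under 0.05). All 3 pairs share libraries, and values without the libraries labelled competent telogen or ventral early anagen are given beside them.

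Ventral minus chin values were -1.29 for Lef1, -0.76 for Nkd1 and -0.96 for Nkd2 on the log2 scale. Without those libraries they were -0.56, -0.29 and -0.51, and none passed the test (adjusted p = 0.144, 0.213 and 0.0537).

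Dorsal minus chin values were 0.31 for Axin2, -0.54 for Tcf7, -0.52 for Nkd2, 0.66 for Sp5, 0.65 for Rnf43 and 1.17 for Znrf3. Without those libraries they were -0.04, -1.10, -1.06, 0.52, 0.56 and 1.06, and of the genes other than Sp5 all but Axin2 passed the test. With all libraries Nkd2 lost its call with TPM (-0.31). Sp5 passed the filter on low values only through groups where it was high, so its values here and in the next paragraph are descriptions, and no test of it is read.

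Dorsal minus ventral values were 1.07 for Lef1, -0.28 for Tcf7, 0.71 for Nkd1, 0.44 for Nkd2, 0.59 for Sp5, 0.51 for Rnf43 and 1.16 for Znrf3. Without those libraries they were -0.23, -0.81, 0.08, -0.55, 0.28, 0.27 and -0.09, and Tcf7 alone passed. Tcf7 with all libraries lost its call in 9 of the 43 fits that left out 1 library and with TPM (-0.20). Nkd2 and Rnf43 lost theirs with median of ratios scaling (0.11 and 0.25) and quantile normalization (0.18 and 0.26).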

How the results depend on the processing

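Of 225 called results of the 8 genes, 155 kept direction and call under every setting tried in which the gene was fitted, other than the leaving out of libraries whose markers go against their labels, among them 22 of 25 for Lef1 and 15 of 30 for Rnf43. The 225 include 20 of Sp5 and the 155 include 16 of Sp5, which are not read as tests. Scaling by the median of ratios ended 31 calls and quantile normalization 28.

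Counts over those of the 8 genes that were fitted, Sp5 included although no test of it is read, moved over 1.5-fold as follows. For ventral anagen minus telogen (3) they were 1 without a filter or with ventral libraries alone and 7 without the libraries labelled competent telogen or ventral early anagen. With a minimum of 5 FPKM they were 3 for dorsal anagen minus telogen (5), 3 among domains at competent telogen (5) and 5 between the cartilage/muscle complex and ear skin (8). With that minimum Sp5 and Rnf43 were not fitted at all, nor was Nkd1 in the ear table, so these genes left the counts without a test. Among domains at mid anagen (1) they were 3 with TPM and 2 with median of ratios scaling. With single stages fitted alone they were 5 at catagen (3) and 2 at refractory telogen (5). For the difference of anagen minus telogen between ventral and chin skin (3) they were 5 without competent telogen libraries, 0 by limma without ventral early anagen libraries (3 at an unadjusted p under 0.05) and 1 without both, and between dorsal and ventral skin (7) they were 2 without competent telogen libraries and 1 without both. Over the 6 steps, rises numbered 6 in chin (10) and 11 in dorsal skin (7) with the domain fitted alone. Over the 6 stages, genes lower in dorsal than in chin skin (8) numbered 5 with median of ratios scaling, quantile normalization or single stages, and those lower in dorsal than in ventral skin (8) numbered 5 without a filter or with 5 FPKM.

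Values that turned sign under another scaling were anagen minus telogen in chin skin for Axin2 (0.018, quantile) and Rnf43 (0.0881, median of ratios, and 0.14, quantile), in ventral skin for Axin2 (0.0066, quantile) and Lef1 (0.0143, TPM, and 0.081, median of ratios), and in dorsal skin for Axin2 (-0.0388, median of ratios, and -0.0269, quantile), Tcf7 (0.055, TPM) and Nkd2 (-0.18, median of ratios, and -0.17, quantile). The dorsal minus chin difference of Axin2 turned to -0.022 (median of ratios) and -0.0449 (quantile), and Nkd1 in ear against dorsal skin to -0.22 and -0.21.

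Values that turned without competent telogen libraries were anagen minus telogen of Rnf43 in chin (0.14), of Lef1 (1.19) and Sp5 (0.18) in ventral and of Axin2 in dorsal skin (-0.0392), and the dorsal minus chin difference of Axin2 (-0.0366). Without ventral early anagen libraries, Lef1 (0.76), Nkd1 (0.18) and Nkd2 (0.26) turned in ventral skin and Nkd2 in the dorsal minus ventral difference (-0.22). Without both, the values were 0.14 for Rnf43 in chin, 1.99 for Lef1, 0.41 for Nkd1, 0.57 for Nkd2 and 0.23 for Sp5 in ventral and -0.0392 for Axin2 in dorsal skin, -0.0366 for Axin2 in dorsal minus chin, and -0.23 for Lef1, -0.55 for Nkd2 and -0.0918 for Znrf3 in dorsal minus ventral. The cause of these changes was not tested.

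With single libraries left out, anagen minus telogen ranged from -0.28 to 0.20 for Lef1 in ventral skin, from -0.0014 to 0.0813 for Nkd2 in dorsal skin, and from -0.0962 to 0.0221 for Rnf43 and -0.0906 to 0.31 for Znrf3 in chin skin. Counts ranged from 1 to 3 for ventral anagen minus telogen, 2 to 4 among domains at late anagen, 1 to 4 at mid anagen and 5 to 9 for falls over the 6 dorsal steps.

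The deviations of 327 pairs of libraries with the same replicate number in different groups had a median correlation of 0.003, and 9 were over 0.1. These pairs pool domains of the same stage with different stages, so they cannot decide whether the domains of a stage were paired. The main fit treated libraries as unpaired. With the replicate number as a block and Sp5 included in the counts, 8 genes changed over the stages in chin and ventral and 7 in dorsal skin, as without it, 2 in place of 3 were called for ventral anagen minus telogen, and 4 in place of 3 and 5 in place of 6 for the differences of ventral and dorsal skin from chin. In the ear table the block was fitted for the cartilage/muscle complex against dorsal skin, with 5 genes called as without it. With 2 or 3 libraries a group, and 2 decimals per value, levels near 0 such as those of Sp5 are the least precise.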
